A study of Mus musculus with 9 samples.

Results

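Transcript levels of 36 mouse genes of endoplasmic reticulum (ER) stress and protein folding were compared in fibroblasts that had received either form of the nuclear receptor PPARγ or neither. The genes were taken by symbol from the platform annotation, with 1 probe set per gene (the one with the highest mean over the 9 arrays), and all 36 were found among the 18193 genes measured. They comprised 11 ER chaperones and cofactors, 4 ER disulfide isomerases, 4 sensors and transcription factors of the unfolded protein response, 4 genes of ER-associated degradation, 6 genes of the integrated stress response and 7 heat shock genes. NIH-CAR cells, a single clone of NIH-3T3 fibroblasts that stably expresses the virus receptor CARΔ1, were used at passage 12 and exposed to adenovirus for 2 h. The 3 groups, of 3 arrays each, were cells with AdHA-PPARgCDE (HA-tagged PPARγ without its A/B-domain) and 1 µM rosiglitazone, cells with AdHA-PPARg2 (full-length HA-tagged PPARγ2) and 1 µM rosiglitazone, and cells with AdEmpty (no insert) and the vehicle DMSO. They are called A/B-deleted, full-length and empty vector. Receptor and agonist were given together, so their parts in a difference against empty vector cannot be told apart. The study's design text speaks of 3 separate experiments and the titles number the replicates 1 to 3, but neither says which arrays belong to which experiment.

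The ER folds secreted and membrane proteins with the help of chaperones and of isomerases that form disulfide bonds. When unfolded proteins build up there, the sensors Ire1 (Ern1), Perk (Eif2ak3) and Atf6 start the unfolded protein response: Ire1 splices Xbp1 mRNA, cleaved Atf6 enters the nucleus, and Perk phosphorylates the initiation factor eIF2α. That phosphorylation lowers general translation and favours translation of Atf4, a transcription factor whose targets belong to the integrated stress response, which other eIF2α kinases can also start. Heat shock factors drive a separate set of chaperones in the cytosol, nucleus and mitochondria. PPARγ itself directs adipocyte differentiation, and the A/B-domain is its N-terminal part, which holds a ligand-independent activation function. Much of the unfolded protein response is post-translational, and arrays of this kind read transcript abundance only.

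Several promoters of these genes carry elements through which the stress responses are known to act, and 5 are shown because they hold the motifs whose shares are given next. RefSeq promoter windows of GRCm38.p6, from 250 bases before to 50 bases after the annotated start, were held for 32 of the 36 genes, 35 windows in all since some genes have several starts. Capitals mark the ER stress response element (ERSE, CCAAT and CCACG with 9 bases between) in Hspa5, Hsp90b1 and Creld2, the C/EBP-ATF response element (CARE, TGATGNAA) in Chac1, and 2 overlapping heat shock elements (HSE, GAA, TTC and GAA with 2 bases between each), 1 on each strand, in Hspd1. Each line reads 5′ to 3′ on the strand of the gene.
Hspa5, chr2:34771840-34772139, plus strand: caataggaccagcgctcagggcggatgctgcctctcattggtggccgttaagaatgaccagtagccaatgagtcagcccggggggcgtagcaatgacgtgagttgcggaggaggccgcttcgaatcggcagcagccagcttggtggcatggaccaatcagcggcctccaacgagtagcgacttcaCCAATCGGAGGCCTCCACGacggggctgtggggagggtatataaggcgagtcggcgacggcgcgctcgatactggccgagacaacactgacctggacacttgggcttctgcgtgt
Hsp90b1, chr10:86705395-86705694, minus strand: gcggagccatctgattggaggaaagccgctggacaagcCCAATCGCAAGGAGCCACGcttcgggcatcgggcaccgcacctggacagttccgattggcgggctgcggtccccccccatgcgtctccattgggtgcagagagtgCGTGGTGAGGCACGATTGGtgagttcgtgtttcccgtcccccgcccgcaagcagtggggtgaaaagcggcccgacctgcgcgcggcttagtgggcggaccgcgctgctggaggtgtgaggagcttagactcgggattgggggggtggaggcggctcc
Creld2, chr15:88819396-88819695, plus strand: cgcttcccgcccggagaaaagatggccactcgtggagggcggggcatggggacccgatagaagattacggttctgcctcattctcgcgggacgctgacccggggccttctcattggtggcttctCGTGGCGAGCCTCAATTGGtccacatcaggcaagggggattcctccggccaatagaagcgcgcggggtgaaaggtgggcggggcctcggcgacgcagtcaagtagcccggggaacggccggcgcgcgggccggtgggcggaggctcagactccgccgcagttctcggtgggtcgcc
Chac1, chr2:119350992-119351291, plus strand: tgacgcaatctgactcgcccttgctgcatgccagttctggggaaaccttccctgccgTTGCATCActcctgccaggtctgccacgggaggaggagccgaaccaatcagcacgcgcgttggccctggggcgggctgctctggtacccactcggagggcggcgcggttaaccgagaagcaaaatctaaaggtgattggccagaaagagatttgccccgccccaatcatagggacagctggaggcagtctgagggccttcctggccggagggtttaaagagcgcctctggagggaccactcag
Hspd1, chr1:55087883-55088182, minus strand: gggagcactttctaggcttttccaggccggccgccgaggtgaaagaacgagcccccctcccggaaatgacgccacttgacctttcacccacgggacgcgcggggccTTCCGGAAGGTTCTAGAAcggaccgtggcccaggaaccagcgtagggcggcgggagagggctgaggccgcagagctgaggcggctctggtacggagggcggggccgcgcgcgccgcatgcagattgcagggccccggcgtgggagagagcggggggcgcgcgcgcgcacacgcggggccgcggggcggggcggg

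Both strands of all 32851 RefSeq promoter windows of the same length were searched for 6 motifs. The ERSE was found in 8 of the 35 windows, of 8 genes (Calr, Canx, Creld2, Dnajc3, Hsp90b1, Hspa5, Pdia6 and Syvn1), against 0.119% of all windows. It lay at -65 to -47 from the start in Hspa5, on the other strand at -126 to -108 in Creld2, and once on each strand in Hsp90b1, at -212 to -194 and at -107 to -89. The shorter ERSE-II (ATTGG and CCACG with 1 base between) was found in 2 of the 35 windows (Dnajb11 and Herpud1), against 0.0365% of all windows. The CARE was found in 5 of the 35 windows (Asns, Atf3, Chac1, Herpud1 and Trib3), against 3.97% of all windows, and in Chac1 it lay on the other strand at -193 to -186. The HSE was found in 4 of the 35 windows, of 3 genes (Hspd1, Hspe1 and Hsph1), against 0.603% of all windows. Hspd1 and Hspe1 are neighbours that are read in opposite directions from one stretch of promoter, so their matches lie in shared sequence. The 2 windows of Hsph1 overlap and hold the same site, at 37 to 49 and at 16 to 28 from their starts. The 4 windows with an HSE are therefore not 4 separate sites. The letters TGACGTGG, a binding site of Xbp1 and Atf6 known as UPRE, were found in 0 of the 35 windows and in 0.676% of all windows. The letters AGGTCA repeated after 1 base, the direct repeat that PPARγ binds with its partner RXR, were found in 0 of the 35 windows and in 0.0396% of all windows. A match of letters is a description of the window and does not show that a factor binds there.

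Values are on the log2 scale, as deposited, and a difference of 1 is a doubling of signal. The deposited table was made from 9 arrays whose medians ran from 6.68 to 6.90. The 3 arrays of a group are given in the order of their numbers in the sample titles, 1, 2 and 3. The probe set of Pparg, which does not separate transgene from endogenous transcript, read 10.74, 12.01 and 11.26 on A/B-deleted arrays, 10.70, 12.22 and 10.84 on full-length arrays, and 7.01, 6.99 and 7.17 on empty-vector arrays. The 9 fibroblast markers averaged between 12.02 and 12.75 on every array, and the averages of the adipocyte, leukocyte, epithelial, endothelial and muscle lists lay between 5.65 and 7.65. On the arrays numbered 3 the controls for 18S ribosomal RNA stood apart, at 8.06 on the A/B-deleted, 7.59 on the full-length and 8.67 on the empty-vector array, against 10.51 to 12.44 on the other 6 arrays. The average of the fibroblast markers was also lowest on these 3 arrays, at 12.09, 12.02 and 12.20, against 12.59 to 12.75 elsewhere. Its members did not move alike: Pdgfra read 9.95, 9.82 and 10.29 on these arrays, against 10.91 to 11.48 elsewhere, and Vim read 14.25, 14.27 and 14.21, the highest of each group.

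None of the 36 genes passed the test in any comparison between the groups in the fit without a block. With limma, adjustment by Benjamini-Hochberg across every gene tested and a threshold of 0.05, 0 of 36 were called between A/B-deleted and empty vector (0.170% of all genes were), 0 of 36 between full-length and empty vector (0.654%), and 0 of 36 between A/B-deleted and full-length (0%). The lowest adjusted p was 0.9998 for A/B-deleted against empty vector, 0.423 for full-length against empty vector and 0.99998 for A/B-deleted against full-length. At an unadjusted p under 0.05, the counts were 0, 1 and 0 of 36, against 3.79%, 6.20% and 1.52% of all genes. An F test over the 3 groups called 0 of 36 (0.418% of all genes), with the lowest adjusted p at 0.982 for Sdf2l1. The p-values cover the spread between arrays of 1 clone. Each array reads RNA of a whole culture, so fewer cells with a transcript and less of it per cell cannot be told apart.

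For most of the genes the intervals did not reach a change of 1 log2 unit. The 95% intervals of the differences lay within 1 log2 unit of 0 for 34 of 36 genes between A/B-deleted and empty vector, for 34 of 36 between full-length and empty vector, and for 36 of 36 between the receptor forms. They lay within 0.5 for 17, 16 and 24 genes, so smaller shifts were often not detectable in this fit, which has no block. The differences themselves ran from -0.28 (Chac1) to 0.16 (Eif2ak3) for A/B-deleted minus empty vector, from -0.41 (Sdf2l1) to 0.24 (Hspb1) for full-length minus empty vector, and from -0.22 (Hspb1) to 0.22 (Pdia3) for A/B-deleted minus full-length. Their medians were -0.09, -0.08 and -0.01, beside medians of -0.03, 0.00 and -0.01 over all genes. Differences below 0 numbered 29 of 36 (80.6%) for A/B-deleted minus empty vector, beside 57.8% of all genes, and 28 of 36 (77.8%) for full-length minus empty vector, beside 49.1% of all genes. Both comparisons use the same 3 empty-vector arrays, so these 2 counts are not separate evidence. They also depend on the probe set used. Of the 26 genes with several probe sets, for A/B-deleted minus empty vector all were below 0 in 13, all above in 1 and of mixed sign in 12. For full-length minus empty vector these counts were 14, 3 and 9. The sizes rested on single arrays: for A/B-deleted minus empty vector the median was -0.02 (26 of 36 below 0) without the A/B-deleted array numbered 1 and -0.04 (26 of 36) without the empty-vector array numbered 2. For full-length minus empty vector it was -0.02 (24 of 36) without the full-length array numbered 1, -0.15 (29 of 36) without the full-length array numbered 2 and -0.04 (23 of 36) without the empty-vector array numbered 2. In both comparisons all of these medians stayed below 0. Over all genes the medians in these settings were -0.03 and -0.01 for A/B-deleted, and 0.04, 0.005 and 0.02 for full-length minus empty vector. Without the A/B-deleted array numbered 1, the median of the members was thus not below that of all genes. Without the arrays numbered 3 the medians of the members were -0.11 and -0.09, beside -0.08 and -0.07 over all genes. Genes at or above the median in brightness held 35 of the members. Among these genes, 28 of 35 members (80%) were below 0 for A/B-deleted minus empty vector, beside 54.1% of the genes. For full-length minus empty vector it was 27 of 35 (77.1%), beside 55.3%. Between the receptor forms 20 of 36 (55.6%) were below 0, beside 54.0% of all genes, and the median was 0.06 without either the A/B-deleted array numbered 1 or the full-length array numbered 2.

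**Figure D1:**
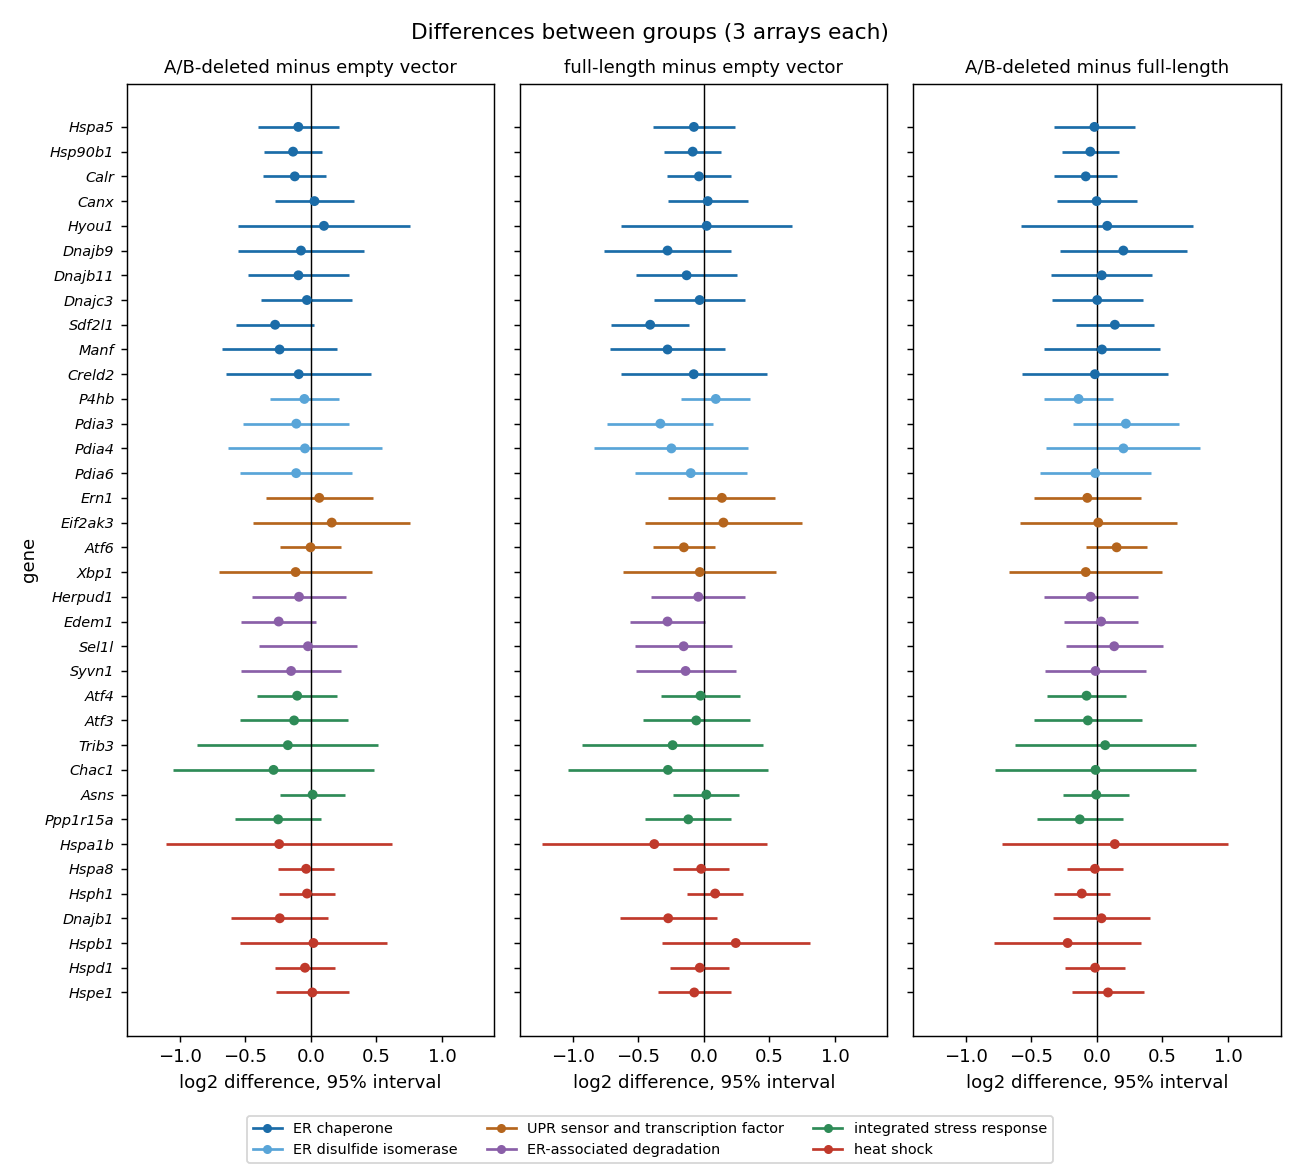
Differences between groups on the log2 scale for the 36 genes, with 95% intervals from limma without a block (bars) and colours for the 6 roles. The panels show A/B-deleted minus empty vector, full-length minus empty vector and A/B-deleted minus full-length. Most points against empty vector lie slightly below 0, and the interval of full-length minus empty vector for Sdf2l1 is the one that ends below 0.

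Among the ER chaperones, Hspa5 encodes BiP, the main Hsp70 of the ER lumen and the usual reporter of ER stress. Hspa5 read 13.09, 13.45 and 13.27 on A/B-deleted arrays, 13.16, 13.43 and 13.28 on full-length arrays, and 13.19, 13.52 and 13.39 on empty-vector arrays. The groups overlapped, and in each of them the array numbered 1 was lowest and the array numbered 2 highest. The difference was -0.09 (SE 0.14, 95% interval -0.41 to 0.22) for A/B-deleted minus empty vector, -0.08 (-0.39 to 0.23) for full-length minus empty vector and -0.02 (-0.33 to 0.29) for A/B-deleted minus full-length. Over the 3 probe sets of Hspa5 the differences against empty vector ran from -0.25 to -0.09 for A/B-deleted and from -0.14 to -0.08 for full-length.

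Sdf2l1, a small ER protein that works with DnaJ cofactors of BiP, was the member whose groups stood furthest apart. It read 9.21, 9.41 and 9.27 on A/B-deleted arrays, 9.13, 9.33 and 9.02 on full-length arrays, and 9.51, 9.76 and 9.43 on empty-vector arrays. All 3 A/B-deleted and all 3 full-length arrays were below all 3 empty-vector arrays. By limma without a block, the difference was -0.27 (SE 0.13, 95% interval -0.57 to 0.03, adjusted p = 0.9998) for A/B-deleted minus empty vector. For full-length minus empty vector it was -0.41 (SE 0.13, 95% interval -0.71 to -0.11, limma adjusted p = 0.423) in the same fit. The fit with a replicate block, given at the end, called this second difference. The value of A/B-deleted minus full-length was 0.14 (-0.16 to 0.44).

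Manf, a secreted protein of the ER that is released under stress, read 11.45, 12.01 and 11.64 on A/B-deleted arrays, 11.41, 11.95 and 11.62 on full-length arrays, and 11.80, 12.22 and 11.80 on empty-vector arrays. At every number A/B-deleted read lower than empty vector, but the groups overlapped because the arrays numbered 2 were high throughout. The differences were -0.24 (-0.68 to 0.20) for A/B-deleted and -0.28 (-0.72 to 0.16) for full-length minus empty vector. Dnajb9, a DnaJ cofactor of BiP that holds Ire1 in check, read 8.75, 9.005 and 8.58 on A/B-deleted arrays, 8.72, 8.95 and 8.06 on full-length arrays, and 8.92, 8.76 and 8.88 on empty-vector arrays. The full-length array numbered 3 alone was far below the others, and without the arrays numbered 3 the value of full-length minus empty vector was 0.00, against -0.28 with them. Hsp90b1, the Hsp90 of the ER, was on A/B-deleted arrays (13.09, 13.14 and 13.13) below all empty-vector arrays (13.27, 13.33 and 13.16), by a difference of -0.13 (-0.35 to 0.08). On the other probe set of Hsp90b1 these groups overlapped. The other 6 genes of this role (Calr, Canx, Hyou1, Dnajb11, Dnajc3 and Creld2) had differences from -0.12 to 0.10 for A/B-deleted and from -0.13 to 0.03 for full-length minus empty vector.

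None of the 4 disulfide isomerases passed the test. P4hb, which forms and rearranges disulfide bonds, read 12.81, 12.95 and 12.93 on A/B-deleted arrays, 12.96, 13.15 and 13.00 on full-length arrays, and 12.79, 13.09 and 12.95 on empty-vector arrays. Its A/B-deleted arrays lay below all its full-length arrays, with a difference of -0.14 (-0.40 to 0.12), and both overlapped empty vector. Pdia3, which works with calnexin and calreticulin on glycoproteins, read 12.41, 12.59 and 12.73 on A/B-deleted arrays, 12.46, 11.95 and 12.67 on full-length arrays, and 12.73, 12.60 and 12.73 on empty-vector arrays. The full-length array numbered 2 stood below the rest, and full-length minus empty vector was -0.33 (-0.73 to 0.07). Pdia4, another isomerase of the ER lumen, read 9.04, 9.61 and 10.04 on A/B-deleted arrays, 9.17, 9.16 and 9.75 on full-length arrays, and 9.42, 9.53 and 9.88 on empty-vector arrays. Its array numbered 3 was the highest in each group. The differences of Pdia6 were -0.11 for A/B-deleted and -0.10 for full-length minus empty vector.

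The sensors of the unfolded protein response and Xbp1 gave differences of either sign. Xbp1, whose mRNA is spliced by Ire1, read 11.32, 11.72 and 10.93 on A/B-deleted arrays, 11.48, 11.80 and 10.95 on full-length arrays, and 11.57, 11.63 and 11.12 on empty-vector arrays. The differences were -0.12 (-0.70 to 0.47) for A/B-deleted and -0.03 (-0.61 to 0.55) for full-length minus empty vector. Splicing cannot be read from this total. Eif2ak3 (Perk) read 9.05, 9.17 and 8.43 on A/B-deleted arrays, 9.07, 9.16 and 8.39 on full-length arrays, and 8.79, 9.02 and 8.36 on empty-vector arrays. A/B-deleted was above empty vector at every number, and the differences of 0.16 (-0.44 to 0.76) and 0.15 (-0.45 to 0.75) did not pass the test. On the other, dimmer probe sets of Eif2ak3 the differences were -0.03 and -0.08 for A/B-deleted, and -0.03 and 0.11 for full-length minus empty vector. Atf6 read 8.35, 8.25 and 8.46 on A/B-deleted arrays, 8.29, 8.20 and 8.12 on full-length arrays, and 8.38, 8.33 and 8.35 on empty-vector arrays. Its full-length arrays lay below all empty-vector arrays, by -0.15 (-0.39 to 0.08), but these groups overlapped on another of its probe sets. Ern1 read 7.29, 7.41 and 7.66 on A/B-deleted arrays, 7.51, 7.57 and 7.50 on full-length arrays, and 7.22, 7.13 and 7.81 on empty-vector arrays, which overlapped throughout. Its value of full-length minus empty vector was 0.14, and 0.36 without the arrays numbered 3. Over the 5 probe sets of Ern1 the differences against empty vector ran from -0.15 to 0.07 for A/B-deleted and from -0.15 to 0.14 for full-length.

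In ER-associated degradation, which returns misfolded proteins to the cytosol, Edem1 came closest to a separation. Edem1, a lectin that delivers glycoproteins for degradation, read 9.14, 9.39 and 9.39 on A/B-deleted arrays, 9.21, 9.35 and 9.26 on full-length arrays, and 9.36, 9.67 and 9.63 on empty-vector arrays. The full-length arrays lay below all empty-vector arrays, and the A/B-deleted arrays overlapped them. On the other probe set of Edem1 both receptor groups overlapped empty vector. Its differences were -0.24 (-0.53 to 0.04) for A/B-deleted and -0.28 (-0.56 to 0.01, limma adjusted p = 0.840) for full-length minus empty vector. Sel1l, the adaptor of the ubiquitin ligase Syvn1, read 9.25, 9.49 and 9.09 on A/B-deleted arrays, 9.14, 9.35 and 8.95 on full-length arrays, and 9.43, 9.44 and 9.03 on empty-vector arrays. Syvn1 read 8.76, 9.17 and 9.12 on A/B-deleted arrays, 8.87, 9.17 and 9.05 on full-length arrays, and 8.86, 9.30 and 9.34 on empty-vector arrays. Both overlapped between the groups. Herpud1, which helps to assemble that ligase, differed by -0.09 for A/B-deleted and -0.04 for full-length minus empty vector.

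None of the 6 genes of the integrated stress response passed the test, and Chac1 and Trib3 varied widely within each group. Atf4 read 11.87, 12.12 and 12.20 on A/B-deleted arrays, 11.97, 12.23 and 12.23 on full-length arrays, and 12.02, 12.20 and 12.29 on empty-vector arrays. The differences were -0.10 (-0.41 to 0.20) and -0.03 (-0.33 to 0.28) against empty vector, and its protein is controlled mainly at translation. The 3 probe sets of Atf4 disagreed in size, from -0.84 to -0.10 for A/B-deleted minus empty vector. Chac1, which degrades glutathione and is a target of Atf4, read 7.56, 8.24 and 8.58 on A/B-deleted arrays, 7.67, 8.21 and 8.53 on full-length arrays, and 7.89, 8.35 and 8.98 on empty-vector arrays. Trib3, a pseudokinase induced by Atf4, read 7.24, 7.32 and 8.11 on A/B-deleted arrays, 7.02, 7.51 and 7.95 on full-length arrays, and 7.47, 7.53 and 8.19 on empty-vector arrays. In both genes A/B-deleted was below empty vector at every number, and the array numbered 3 read highest in every group. The differences of Chac1 were -0.28 (-1.05 to 0.48) and -0.27 (-1.04 to 0.49), and those of Trib3 -0.17 (-0.87 to 0.52) and -0.24 (-0.93 to 0.45), for A/B-deleted and full-length minus empty vector. Ppp1r15a, the phosphatase subunit that reverses eIF2α phosphorylation, read 7.74, 7.96 and 8.12 on A/B-deleted arrays, 7.88, 8.21 and 8.12 on full-length arrays, and 8.01, 8.34 and 8.21 on empty-vector arrays. Its differences were -0.25 (-0.58 to 0.08) and -0.12 (-0.45 to 0.21). Atf3 and Asns had differences from -0.13 to 0.02 against empty vector.

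Of the heat shock genes, Hspa1b encodes the inducible Hsp70, and its probe set may also read the near-identical Hspa1a. It read 9.69, 10.37 and 9.31 on A/B-deleted arrays, 9.62, 10.28 and 9.07 on full-length arrays, and 10.14, 10.53 and 9.43 on empty-vector arrays. A/B-deleted was below empty vector at every number, yet the span within each group exceeded 1 log2 unit and the groups overlapped. The differences were -0.24 (-1.10 to 0.62) for A/B-deleted and -0.38 (-1.24 to 0.48) for full-length minus empty vector. Dnajb1, the Hsp40 partner of Hsp70, read 9.99, 10.04 and 9.76 on A/B-deleted arrays, 10.02, 10.05 and 9.62 on full-length arrays, and 10.11, 10.42 and 9.97 on empty-vector arrays. Its differences of -0.24 (-0.61 to 0.13) and -0.27 (-0.64 to 0.10) were of a like size. Hspb1, a small heat shock protein, read 8.11, 7.56 and 7.63 on A/B-deleted arrays, 7.82, 7.97 and 8.19 on full-length arrays, and 8.21, 7.82 and 7.20 on empty-vector arrays. Full-length minus empty vector was 0.24 for Hspb1, and -0.13 without the arrays numbered 3. Hsph1, an exchange factor for Hsp70, was the member with full-length arrays (11.84, 11.82 and 11.82) above all A/B-deleted arrays (11.68, 11.68 and 11.78) and all empty-vector arrays (11.79, 11.74 and 11.69). On its other probe set the groups overlapped. The mitochondrial chaperonins Hspd1 and Hspe1 and the constitutive Hsp70 Hspa8 had differences from -0.07 to 0.01 against empty vector.

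The counts of members without overlap were close to those of all genes. A/B-deleted arrays were all below empty-vector arrays in 2 of 36 genes (Hsp90b1 and Sdf2l1), against 4.03% of all genes. Full-length arrays were all below empty-vector arrays in 3 of 36 (Atf6, Edem1 and Sdf2l1), against 4.86%, and all above in 1 (Hsph1), against 4.52%. A/B-deleted arrays were all below full-length arrays in 2 of 36 (Hsph1 and P4hb), against 3.14%. These counts rest on the brightest probe set of each gene. Hsp90b1, Edem1 and Hsph1 overlapped on their other probe set, and Atf6 on another of its probe sets. Sdf2l1 and P4hb have 1 probe set each.

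Equal replicate numbers paired the A/B-deleted arrays with those of both other groups, by the correlation of their deviations across all genes. Read by number, A/B-deleted was below empty vector at all 3 numbers in 17 of 36 genes (47.2%), against 19.0% of all genes, and above at all 3 in 1 (Eif2ak3), against 14.8%. With the number as a block, limma still called 0 of 36 between A/B-deleted and empty vector, against 0.912% of all genes, and the lowest adjusted p was 0.232, for Sdf2l1. An unadjusted p under 0.05 was reached by 7 of 36 (19.4%) in that fit, against 9.84% of all genes. Between A/B-deleted and full-length the block left the lowest adjusted p at 0.980. In these 2 comparisons no single member passed the adjusted test. The block for full-length against empty vector, which called Sdf2l1, is given at the end because equal numbers did not pair those groups throughout.

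Most of the variation of these genes ran along the replicate number instead of the group. This was examined after the values had been seen. Of the sum of squares of each gene over the 9 arrays, the number held a median of 77.6% and the group a median of 11.04%, beside 32.3% and 14.1% over all genes. The number held more than the group in 29 of 36 genes (80.6%), beside 65.5% of all genes. The shares over all genes, here and in the orders by number below, include dim genes, while 35 of the 36 members lay at or above the median in brightness. The part of brightness in the gap between members and all genes was not tested. Creld2 (94.4% by number, 1.93% by group), Eif2ak3 (93.0% and 5.17%), Hyou1 (92.3% and 1.54%) and Xbp1 (92.1% and 2.52%) lay at one end. Sdf2l1 (30.3% by number, 66.2% by group), Hsph1 (3.35% and 65.0%), Hsp90b1 (15.6% and 60.2%), Edem1 (38.0% and 55.7%) and Atf6 (12.4% and 55.2%) lay at the other.

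**Figure D2:**
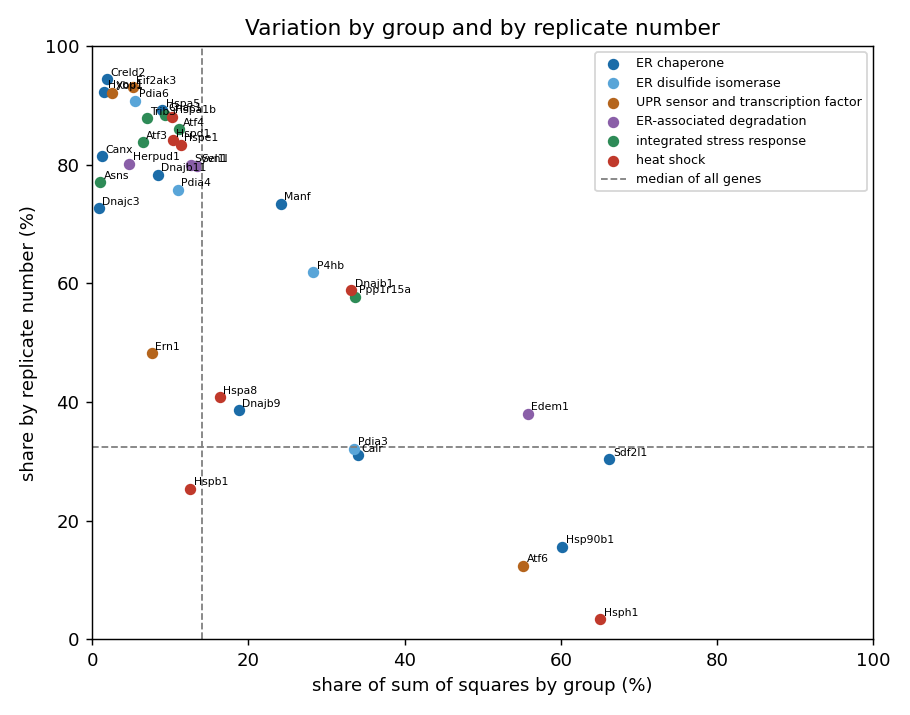
Share of the sum of squares of each of the 36 genes over the 9 arrays that lies between groups (x axis, %) and between replicate numbers (y axis, %), with roles in colour and the medians of all 18193 genes as dashed lines. Most genes sit at the upper left, above the dashed line at 32.3% by number.

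A limma F test over the 3 numbers, with group as the other term, called 13 of 36 genes, against 14.9% of all genes. They were Creld2, Hyou1 and Manf among the chaperones, Pdia4 and Pdia6 among the isomerases, Eif2ak3 and Xbp1 among the sensors and factors, Sel1l and Syvn1 in degradation, Atf3, Chac1 and Trib3 in the integrated stress response, and Hspa1b in heat shock. Leaving out any 1 array gave between 4 and 10 called genes. The lowest count, 4, came without the A/B-deleted array numbered 3, when 4.27% of all genes were called. Without the full-length array numbered 2 it was 5 (6.49%), and it was 7 without the A/B-deleted array numbered 1 (6.12%), the A/B-deleted array numbered 2 (7.88%) or the empty-vector array numbered 2 (7.84%). Arrays of equal number may be those of 1 experiment, which the labels do not state. The F test and the split of the sum of squares take the number across all 3 groups. Yet between full-length and empty vector the correlation of deviations was -0.12 at number 1, 0.63 at number 2 and 0.255 at number 3. The limit set on the block for those groups therefore holds here too.

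**Figure D3:**
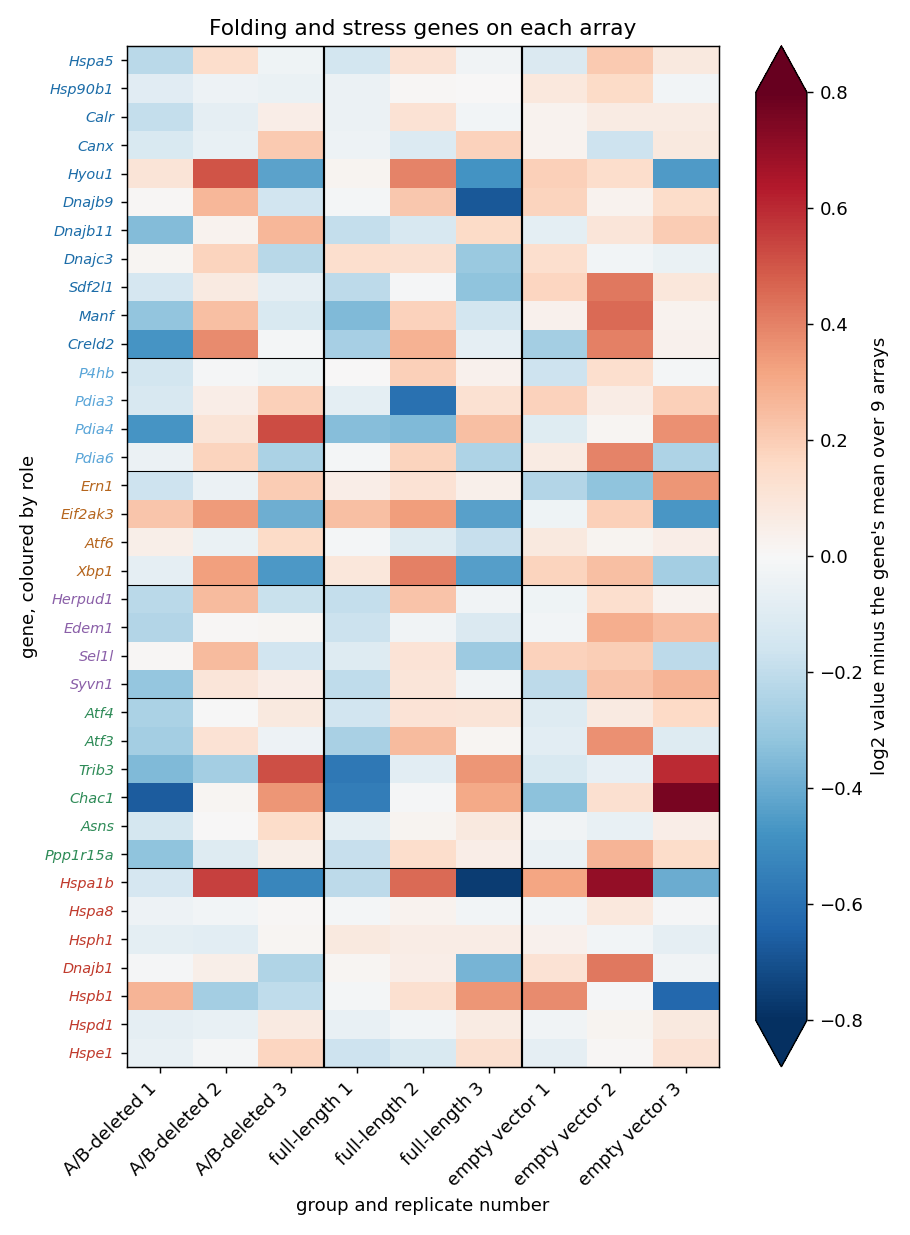
Each of the 36 genes (rows, grouped and coloured by role) on each of the 9 arrays (columns), as the log2 value minus the mean of that gene over the 9 arrays. A pattern over the numbers 1 to 3 recurs in each group, as in Hyou1, Xbp1 and Hspa1b, which are lowest on the array numbered 3 in every group.

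The arrays numbered 2 read above those numbered 1 in most of these genes. This held in all 3 groups for 25 of 36 genes (69.4%), against 18.0% of all genes, and the reverse order held in all 3 groups for 2 (Atf6 and Hsph1), against 18.2%. Within groups, 33 of 36 genes were higher on number 2 among A/B-deleted arrays, 30 of 36 among full-length arrays and 26 of 36 among empty-vector arrays, beside 38.7%, 59.3% and 48.9% of all genes. The median difference of number 2 minus number 1 was 0.21, and -0.01 over all genes. Single calls were Creld2, a secreted ER protein, at 0.69 (SE 0.08, limma adjusted p = 0.0266) and Manf at 0.50 (SE 0.07, adjusted p = 0.0440), 2 of 36 against 0.539% of all genes called higher. Creld2 read 9.93, 10.78 and 10.39 on A/B-deleted arrays, 10.13, 10.67 and 10.33 on full-length arrays, and 10.13, 10.80 and 10.44 on empty-vector arrays, so that the numbers ranked alike in each group. The 25 genes included 6 of the 8 with an ERSE in the promoter (Calr, Creld2, Hsp90b1, Hspa5, Pdia6 and Syvn1) and 4 of the 5 with a CARE. They also included 2 of the 2 with an ERSE-II and 2 of the 3 with an HSE. The order was thus common with or without a given motif, at 69.4% of all members. Of the 26 genes with more than 1 probe set, all probe sets gave number 2 above number 1 in 15 and below it in 2, and the sign was mixed in 9. The signal of Pparg was also highest on the arrays numbered 2 in both receptor groups, and with empty vector it was lowest there. The median member difference of number 2 minus number 1 was 0.21 with A/B-deleted, 0.17 with full-length and 0.11 with empty vector. Over all genes the medians in these groups were -0.06, 0.05 and -0.01, so the arrays as a whole also shifted unequally. The part of Pparg in this order was not tested.

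The arrays numbered 3 differed from the others in both directions. Against number 1, 10 of 36 genes were called, 6 higher (6.68% of all genes were) and 4 lower (6.10%). Higher were Chac1 (0.99), Trib3 (0.84), Pdia4 (0.68), Dnajb11 (0.41), Syvn1 (0.34) and Atf4 (0.28), and lower were Eif2ak3 (-0.57), Hyou1 (-0.56), Hspa1b (-0.55) and Xbp1 (-0.45). Against number 2, Chac1 (0.43) and Trib3 (0.63) were called higher (8.21% of all genes were), and 9 genes lower (8.06%), among them Hspa1b (-1.13), Hyou1 (-0.80), Eif2ak3 (-0.72), Xbp1 (-0.71) and Pdia6 (-0.50). In all 3 groups number 3 was lowest in 8 genes (Dnajb1, Dnajc3, Eif2ak3, Hspa1b, Hyou1, Pdia6, Sel1l and Xbp1), against 14.2% of all genes. It was highest in all 3 groups in 9 (Asns, Canx, Chac1, Dnajb11, Hspd1, Hspe1, Pdia3, Pdia4 and Trib3), against 14.9%.

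These differences of number 3 went with the low 18S controls and the low average of fibroblast markers given earlier, and with the choice of probe set. Hyou1, an ER chaperone of the Hsp110 kind, gave number 3 minus number 1 as -0.56 on the probe set used and as 0.39 and 0.36 on its other probe sets, which averaged 8.85 and 7.10 over the 9 arrays. Pdia4 gave 0.68 on the probe set used and -0.21 on the other, which averaged 7.02. Eif2ak3 gave -0.57 against 0.07 and 0.09 on probe sets that averaged 5.65 and 6.14, below every array median. Atf4 gave 0.28 against -0.16 and 0.71 on probe sets that averaged 11.47 and 7.68. Of these other probe sets only those of Eif2ak3 averaged below every array median, and the one used is by rule the brightest. The part of brightness in the opposite signs was not tested. By contrast, all 4 probe sets of Xbp1 were lower on number 3 than on number 1, from -0.89 to -0.28, as were all 5 of Sel1l, from -0.40 to -0.09, and all 3 of Hspa1b, from -0.55 to -0.12, and both of Trib3 were higher, at 0.84 and 0.67. Over the 26 genes with several probe sets the sign of number 3 minus number 1 was mixed in 14. The part of RNA quality or of probe position in these differences was not tested.

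**Figure D4:**
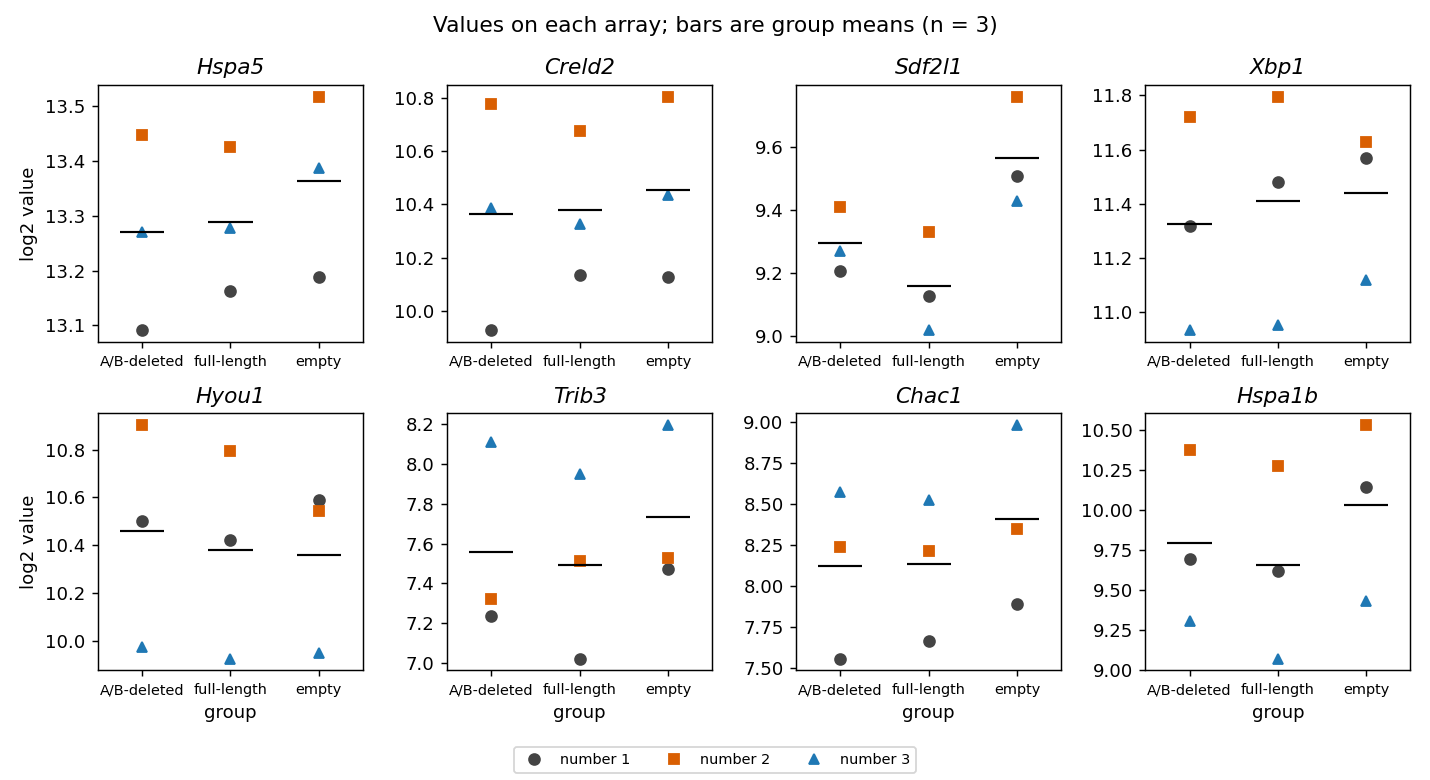
Log2 values of 8 genes on every array by group (x axis), with a marker for each replicate number and a bar for the mean of 3 arrays. The numbers keep the same rank across groups in Hspa5, Creld2, Xbp1, Trib3, Chac1 and Hspa1b, while Sdf2l1 is lower with either receptor form than with empty vector.

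Further genes of the same pathways, 144 measured of 156 listed, were tested in the same fits. In the fit without a block, 0 of 144 were called in each of the 3 comparisons, with median differences of -0.03 for A/B-deleted and -0.03 for full-length minus empty vector. With the block, 2 of 144 were called between A/B-deleted and empty vector, both higher, against 0.912% of all genes called in either direction. Bag2, a cochaperone of Hsp70, read 9.61, 9.79 and 10.03 on A/B-deleted arrays, 9.76, 9.92 and 10.16 on full-length arrays, and 9.05, 9.13 and 9.42 on empty-vector arrays. Both receptor groups lay above all empty-vector arrays. A/B-deleted minus empty vector was 0.61, with a limma adjusted p of 0.487 without the block and 0.0179 with it. Creb3l1, an ER-bound transcription factor related to Atf6, read 9.48, 9.97 and 9.79 on A/B-deleted arrays, 9.76, 10.21 and 9.94 on full-length arrays, and 8.62, 9.24 and 9.18 on empty-vector arrays. Its difference was 0.73, with an adjusted p of 0.584 without the block and 0.0245 with it. Full-length minus empty vector was 0.75 (limma adjusted p = 0.0997) for Bag2 and 0.96 (adjusted p = 0.0931) for Creb3l1 without the block. With the block the limma adjusted p was 0.00362 and 0.00407, though equal numbers did not pair these groups throughout. In the fit without a block, A/B-deleted minus full-length was -0.13 (-0.49 to 0.23) and -0.23 (-0.68 to 0.23). The other lists (ER folding, translocation and glycosylation, ER-associated degradation, the integrated stress response, mitochondrial folding and the cytosolic chaperonin TRiC) had 0 genes called between A/B-deleted and empty vector in either fit.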

How the data were processed

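Total RNA was primed with oligo(dT), labelled and hybridised to 9 Affymetrix arrays, per the labels' protocols. The authors deposited 1 log2 value per probe set and array, and the submitters' processing notes name RMA, affy and R 2.5.0. No source gives the log base, which was taken as 2 because 2 raised to the value fell on whole steps of 0.01 (tolerance 0.01 of a step) for 99.858% or more of each array. Of 45101 probe sets, 34945 with 1 gene symbol were kept and gave 18193 genes, with the highest-mean probe set for each. Arrays have no read depth, and their number limits the precision. The median SE of a difference was 0.158 in the fit without a block.

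Differences were tested with limma 3.58.1 in R 4.3.3 (lmFit and eBayes, two-sided, 9 arrays, 3 group means, 6 residual degrees of freedom), with Benjamini-Hochberg adjustment over 18193 genes and a threshold of 0.05. The steps were tested on simulated data. The correlation of deviations from the group means at equal replicate numbers was 0.52 to 0.71 between A/B-deleted and empty vector, 0.30 to 0.53 between A/B-deleted and full-length, and -0.12 to 0.63 between full-length and empty vector, so the numbers were treated as pairs in the comparisons with A/B-deleted. Arrays are not assigned to the 3 experiments of the design text. The F test over numbers was added after the values were seen.

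The members, 8 pathway lists and marker lists were chosen with earlier results of these data known. Per-array values are given for Hspa5, Xbp1, Atf4, Hspa1b, any member called between groups, and in each role the 3 members with the largest difference. Pathway genes were named if called with or without the block, at most 6 per comparison by size of difference, and other per-array values were chosen after they were seen. Alternatives were the replicate block, other scalings, probe-set means, a filter on dim genes, a trend in the variance prior, the 6 compared arrays alone, and leaving out each array or the arrays numbered 3. Promoter windows were RefSeq's, of GRCm38.p6. Python 3.11.15 was used for tables (pandas 2.3.3, numpy 2.4.6) and for figures (matplotlib 3.10.9).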

Additional observations from a re-analysis of the deposited data

How the results depend on the processing

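None of the 36 members was called between groups under any alternative, with 1 exception: with the number as a replicate block, which equal numbers did not bear out for full-length and empty vector, Sdf2l1 was called lower (-0.41, limma adjusted p = 0.0392, 1 member). In that comparison full-length was below empty vector at all 3 numbers in 15 of 36 members, against 17.0% of all genes, and above in 3, against 13.0%. Those 15 held 1 of the 8 members with an ERSE (Hspa5), and the 17 of A/B-deleted held 6 of the 8. The 15 and the 17 were 41.7% and 47.2% of all members. The same block called 8 of the 144 pathway genes, 6 higher and 2 lower. Over all 18193 genes it called 344 higher and 317 lower, which is the background for these 8 and for Sdf2l1. Among the 8 were Creb3l1 (0.96, limma adjusted p = 0.00407), Nupr1 (0.80, 0.0249), Bag2 (0.75, 0.00362), Dnaja4 (0.71, 0.0439), Cryab (-0.62, 0.0133) and Hspb8 (0.50, 0.0202). Of 1134 values of single members under the alternatives, 0 changed sign with a call, 83 changed sign without one, and 7 moved by more than the spread between arrays, among them Atf4 for A/B-deleted minus empty vector at -0.39 with probe-set means. The members' median differences moved by less than the spread of 0.08 between arrays, which is about their own size, and ran from -0.13 to -0.02 and from -0.15 to -0.02 against empty vector without 1 array, for A/B-deleted and full-length. Counts over all genes depended more on the settings. For A/B-deleted against empty vector, 29 genes were called higher and 2 lower. The counts were 120 and 46 with the replicate block, 49 and 6 without the arrays numbered 3, and 79 and 17 with both. Lower calls were 0 with the 6 compared arrays, 1 with probe-set means, with medians subtracted or with quantile normalization, and 7 among the genes at or above the median in brightness. Leaving out 1 array gave 17 to 30 higher and 0 to 4 lower. For full-length against empty vector, 91 were higher and 28 lower, 344 and 317 with the replicate block, 53 and 14 with the 6 compared arrays, and 248 and 113 with the block and without the arrays numbered 3. Those brighter genes gave 53 lower. Leaving out 1 array gave 44 to 88 higher and 13 to 26 lower, and between the receptor forms 0 to 1 lower. The causes were not tested. Members called by number ran from 4 to 10 without 1 array and from 10 to 15 under other scalings or probe-set means. No detection calls were used, so a member near background cannot be named as such.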
